A study of Mus musculus with 18 samples.

Results

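The T cell genes described here are 10 genes by which T lymphocytes are recognised in tissue RNA: Cd3d, Cd3e, Cd3g, Cd4, Cd8a, Cd8b1, Cd2, Lck, Foxp3 and Gzmb. They were taken by symbol from a table of raw counts of 31787 gene symbols, and all 10 were found in it and passed the filter on low counts that kept 21050 genes. The study concerned endothelial cells that take on mesenchymal traits in the scarring kidney, and it measured total RNA of whole kidney in 18 libraries, 3 in each of 6 groups, after unilateral ureteral obstruction (UUO) or without it. In this model 1 ureter is tied off, and the kidney above it becomes inflamed and fibrotic while the opposite, contralateral kidney goes on working.

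The Twist cKO UUO group held obstructed kidneys of Cre-positive mice with floxed Twist alleles, in which Cdh5-CreERT2, an inducible Cre driven by an endothelial promoter, deletes the gene in endothelial cells. Snail cKO UUO kidneys carried the same Cre with floxed Snail alleles, and Myc cKO UUO kidneys carried GGT-Cre, which acts in tubular cells, with floxed Myc alleles. Of the 3 mice in the WT UUO group and the 3 in the contralateral group, 2 each were Cre-positive with no floxed gene, and the third was Cre-negative with floxed Twist alleles; the healthy kidneys came from 3 Cre-negative mice that carried floxed Twist alleles. Strain was a mix of C57BL6 and Balb/c in the Snail and Myc lines and of those with 129sv in all other groups. The mice were 11 to 12 weeks old in the Myc cKO UUO group and 12 weeks old in the other groups. None of the deletions was targeted to T cells, and every knockout library came from an obstructed kidney. Kidneys of the same animal are not marked in the labels, so p-values below measure only the spread between these samples. Replicates are numbered in the order of the sample records, and a number pairs no samples.

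T cells recognise antigen through a receptor whose signal is passed on by the CD3 subunits, encoded by Cd3d, Cd3e and Cd3g. CD4 and CD8 are coreceptors that divide T cells into helper and cytotoxic classes, and both bring the kinase LCK to the receptor. FOXP3 is the transcription factor of regulatory T cells, and granzyme B, the product of Gzmb, is a protease that cytotoxic T cells and natural killer (NK) cells release into their targets. In the obstructed kidney T cells are known to gather between the tubules together with macrophages.

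Cd3g, Cd3d and Cd3e lie side by side on chromosome 9 (44969572 to 44980431, 44981786 to 44987339 and 44998740 to 45009627, GRCm38), and Cd8b1 and Cd8a both lie on chromosome 6. The 150 bases before the annotated start (RefSeq, GRCm38.p6) are printed 5′ to 3′ for the 3 neighbouring CD3 genes, which rose together in WT UUO against contralateral kidneys, and for Cd8a, which was not called there. Capitals mark the letters CACCTG (an E-box), CTTTGA (TCF/LEF), AGGAAG (ETS) and TGTGGT (RUNX), or their reverse complements, motifs of factor families that act in T cells.
Cd3g, chr9:44980432-44980581, minus strand: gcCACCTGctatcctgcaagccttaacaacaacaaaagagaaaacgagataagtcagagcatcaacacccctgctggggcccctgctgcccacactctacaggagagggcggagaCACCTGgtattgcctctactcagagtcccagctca
Cd3d, chr9:44981636-44981785, plus strand: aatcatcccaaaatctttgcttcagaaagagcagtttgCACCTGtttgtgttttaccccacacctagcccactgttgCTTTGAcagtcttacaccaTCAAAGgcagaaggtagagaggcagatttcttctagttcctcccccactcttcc
Cd3e, chr9:45009612-45009761, minus strand: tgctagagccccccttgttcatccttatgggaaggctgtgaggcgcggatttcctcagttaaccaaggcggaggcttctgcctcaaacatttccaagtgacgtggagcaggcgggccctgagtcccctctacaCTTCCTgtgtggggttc
Cd8a, chr6:71373277-71373426, plus strand: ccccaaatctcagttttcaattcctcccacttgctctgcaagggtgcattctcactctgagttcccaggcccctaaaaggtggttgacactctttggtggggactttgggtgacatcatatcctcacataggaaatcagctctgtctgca
The Cd3g window held the E-box letters at 148 and 35 bases before the start, and the Cd3d window held them once and the TCF/LEF letters at 73 and 54 bases before it. The Cd3e window held the ETS letters at 17 bases before the start, and the Cd8a window held none of the 4 motifs. Over all 32851 windows of this length, 10.6% held the E-box, 7.93% the TCF/LEF, 19.7% the ETS and 8.4% the RUNX letters on either strand, and no matches in the members' windows overlapped. The matches describe these letters and were not tested for any role.

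Total counts ran from 52.6 to 91.3 M per library. They were 86.1 to 91.3 M in contralateral and 78.1 to 88.2 M in healthy kidneys, and lower in the obstructed groups, of which WT UUO had 59.5 to 62.0 M. Mitochondrially encoded genes took 20.1 to 37.4% of the counts in obstructed and 48.3 to 54.3% in unobstructed kidneys. Levels are counts per M (CPM) after TMM scaling (trimmed mean of M-values), and 3 counts, the limit that a count of 0 allows, equal 0.0355 to 0.0614 CPM. Twist1 fell by 2.59 ± 0.49 in Twist cKO UUO against WT UUO (log2, standard error SE; edgeR adjusted p = 0.0172), while Snai1 in Snail cKO UUO (-0.61 ± 0.38, adjusted p = 0.487) and Myc in Myc cKO UUO (-0.45 ± 0.23, adjusted p = 0.217) did not pass the test in whole kidney. In 5 of the 6 groups 1 library was the highest for at least 8 of the 10 T cell genes. Twist cKO UUO replicate 1 was the highest of its group for 9 of 10 genes and replicate 3 the lowest for 9. Snail cKO UUO replicate 2 was highest for 9, Myc cKO UUO replicate 2 and WT UUO replicate 2 for 8 each, and healthy replicate 3 for all 10. In contralateral kidneys replicates 2 and 3 were highest for 5 genes each, and in WT UUO kidneys replicates 1 and 3 were lowest for 5 each. Healthy replicate 3 also had a summed level of 6 adipocyte genes of 97.3 CPM, against 0.875 and 1.76 CPM in the other healthy kidneys.

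**Figure D1:**
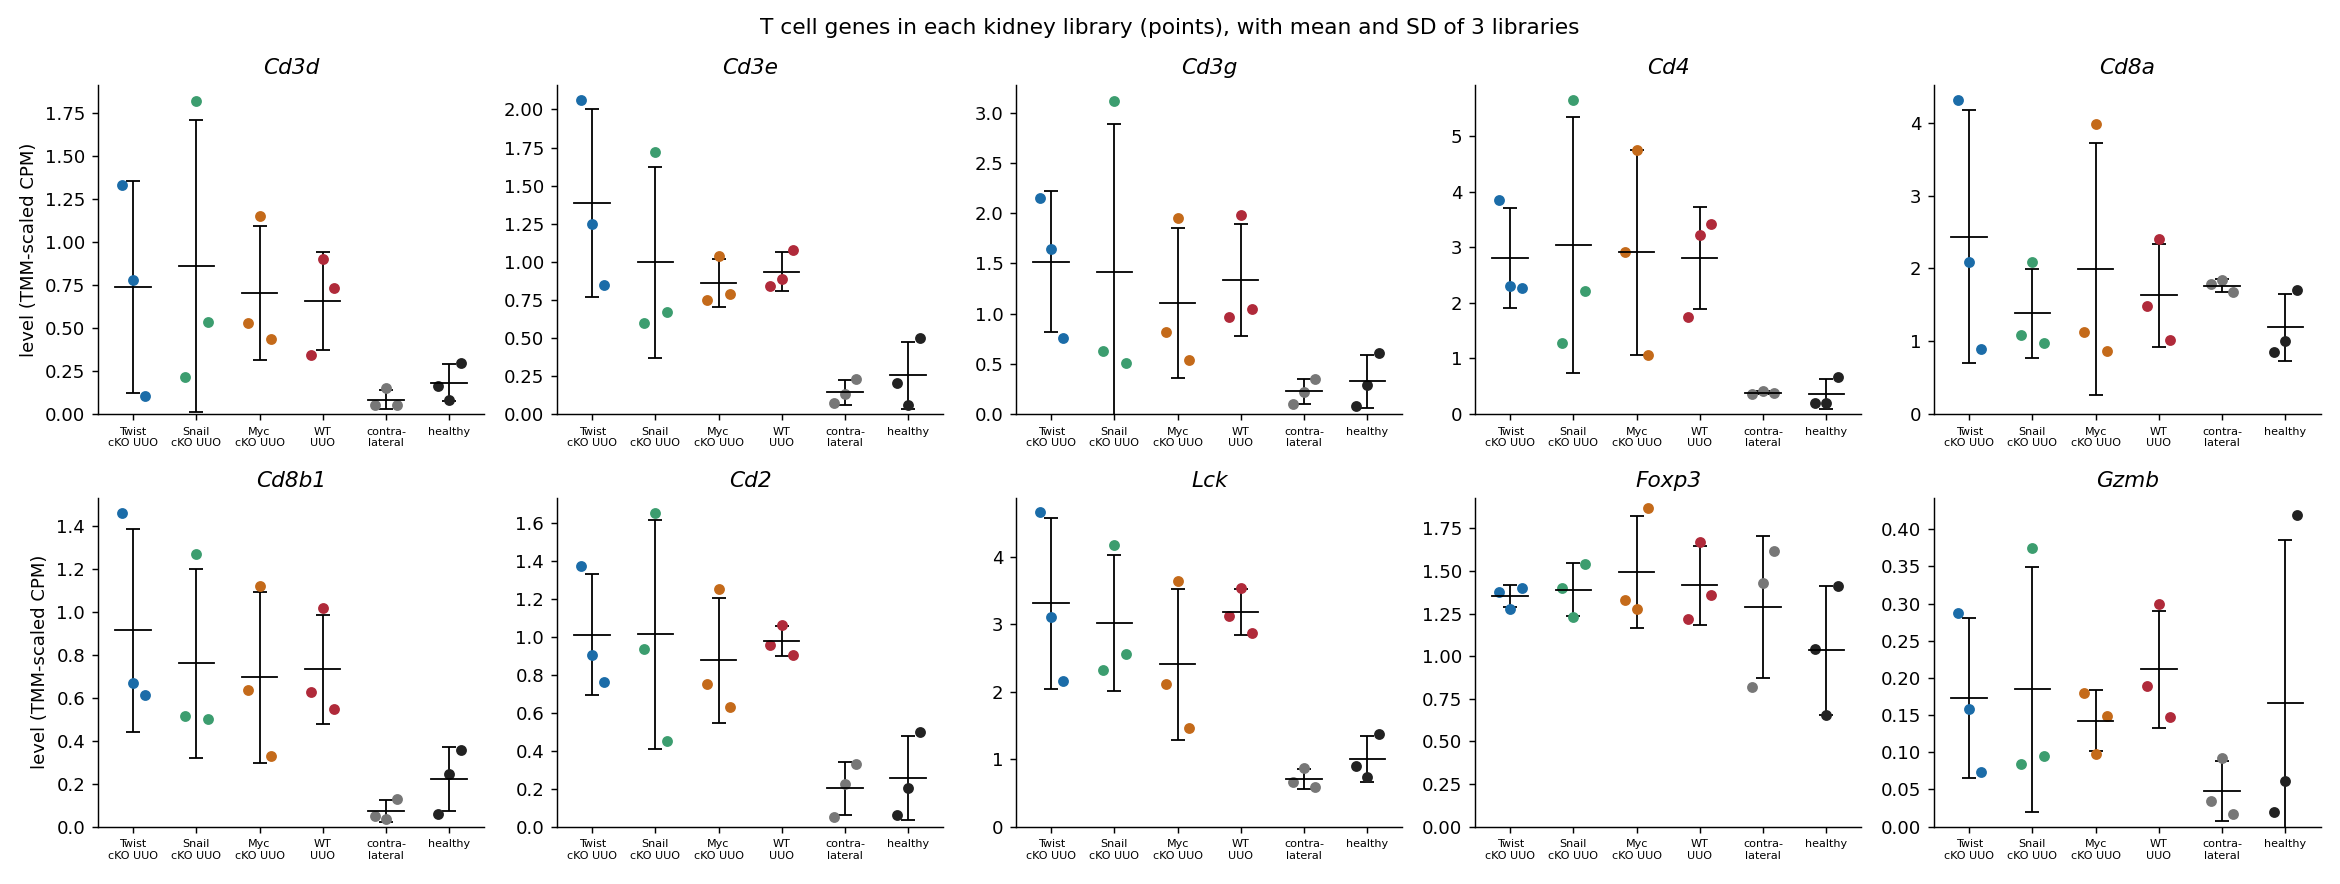
Level of each T cell gene in CPM (vertical axes from 0) in every library (points) of the 6 groups, with the mean (long bar) and SD of 3 libraries (short bars, not drawn below 0). Cd3e, Cd4 and Lck stand higher in all 12 obstructed libraries than in all 6 unobstructed ones, whereas the groups overlap for Cd8a and Foxp3.

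The first question was how obstruction itself changed T cell RNA. Genes were tested by quasi-likelihood in edgeR, with Benjamini-Hochberg adjustment over all 21050 genes, and a gene was called at an adjusted p under 0.05. Against contralateral kidneys, 7 of the 10 T cell genes rose in WT UUO kidneys (Cd3d, Cd3e, Cd3g, Cd4, Cd8b1, Cd2 and Lck) and 0 fell, where 27.5% of all genes rose. Their median log2 fold change over all 10 was 2.42, beside 0.06 for all genes tested. Against healthy kidneys 6 rose (the same genes without Cd3d) where 29.2% of all genes rose, with a median of 1.77 beside 0.05; without healthy replicate 1 or 2 the count was 2 (Cd4 and Lck). In bulk RNA, fewer or more T cells and less or more RNA per cell cannot be told apart. The lowest WT UUO library lay above the highest contralateral one for 8 of 10 genes and above the highest healthy one for 7, and 32.8% of all genes did so in each comparison. For 3 libraries against 3, an exact permutation test could not go below 0.10, so the tests rest on the spread estimated across genes.

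Cd3e, the CD3 epsilon subunit, had 2.06, 1.25 and 0.847 CPM in Twist cKO UUO kidneys, 0.599, 1.72 and 0.667 CPM in Snail cKO UUO kidneys and 0.749, 1.04 and 0.791 CPM in Myc cKO UUO kidneys. WT UUO kidneys had 0.839, 0.886 and 1.08 CPM, against 0.0683, 0.130 and 0.230 CPM in contralateral kidneys and 0.203, 0.0614 and 0.496 CPM in healthy kidneys. The lowest obstructed library, Snail cKO UUO replicate 1, was thus above the highest unobstructed one, healthy replicate 3. WT UUO kidneys exceeded contralateral kidneys by 2.69 ± 0.63 (log2, SE; edgeR adjusted p = 0.00203) and healthy kidneys by 1.84 ± 0.59 (adjusted p = 0.0156). The comparison with healthy kidneys missed the threshold without healthy replicate 1 (adjusted p = 0.0556) or replicate 2 (0.0553). Ordered by mean level, the groups ran from Twist cKO UUO (1.39 ± 0.62 CPM, SD) through Snail cKO UUO (0.994 ± 0.626), WT UUO (0.934 ± 0.125) and Myc cKO UUO (0.861 ± 0.159) to healthy (0.254 ± 0.222) and contralateral (0.143 ± 0.081). Neighbours in that order overlapped except Myc cKO UUO and healthy.

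Cd3g, the gamma subunit, averaged 1.52 ± 0.70 CPM (SD) in Twist cKO UUO kidneys, 1.42 ± 1.48 CPM in Snail cKO UUO kidneys, 1.10 ± 0.75 CPM in Myc cKO UUO kidneys and 1.33 ± 0.56 CPM in WT UUO kidneys, against 0.223 ± 0.121 CPM in contralateral kidneys and 0.324 ± 0.264 CPM in healthy kidneys. The wide spread in Snail cKO UUO came from 3.12 CPM in replicate 2, beside 0.623 and 0.512 CPM. In WT UUO Cd3g rose by 2.57 ± 0.82 (log2, SE) over contralateral (edgeR adjusted p = 0.016) and by 2.01 ± 0.80 over healthy kidneys (adjusted p = 0.0428). The first missed the threshold without contralateral replicate 1 (0.0646) or WT UUO replicate 2 (0.0556), and the second without healthy replicate 1 or 2 or WT UUO replicate 2 or 3 (0.137, 0.108, 0.134 and 0.0527), with Cre presence in the fit (0.0896), by limma voom (0.0573) and with no filter (0.0598).

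Cd3d, the delta subunit, had 102, 64 and 7 raw counts in the Twist cKO UUO libraries and 18, 136 and 45 in the Snail cKO UUO libraries, so that Twist cKO UUO replicate 3 (0.102 CPM) overlapped the contralateral range of 0.0492 to 0.149 CPM. There were 29, 72 and 60 raw counts in WT UUO kidneys, against 3, 8 and 3 in contralateral kidneys, of which 2 libraries were at the limit that a count of 0 allows, and 8, 4 and 19 in healthy kidneys. Cd3d rose by 2.98 ± 0.96 over contralateral kidneys (adjusted p = 0.0162), a call lost without contralateral replicate 1 (0.0603) or 3 (0.0608) and by limma voom (0.0745). The difference from healthy kidneys, 1.83 ± 0.88, did not pass (adjusted p = 0.0889), but did in a fit of these 2 groups alone (0.0327). Differences in fold change between the CD3 genes were not tested.

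Cd4, the coreceptor of helper T cells, which some macrophages and dendritic cells also carry, had 3.85, 2.31 and 2.26 CPM in Twist cKO UUO kidneys, 1.27, 5.65 and 2.21 CPM in Snail cKO UUO kidneys and 2.91, 4.76 and 1.07 CPM in Myc cKO UUO kidneys. WT UUO kidneys had 1.75, 3.23 and 3.43 CPM, against 0.359, 0.409 and 0.377 CPM in contralateral kidneys and 0.203, 0.205 and 0.667 CPM in healthy kidneys. All 12 obstructed libraries were above all 6 unobstructed ones. The rise in WT UUO was 2.87 ± 0.64 over contralateral (adjusted p = 0.00148) and 2.93 ± 0.64 over healthy kidneys (adjusted p = 0.0012), that is 7.33-fold (95% interval 2.84 to 18.9) and 7.63-fold (2.95 to 19.8). Both calls held without any 1 library. Mean levels of the 4 obstructed groups lay between 2.81 and 3.05 CPM, closer to each other than the SD within any of them.

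The genes of the CD8 coreceptor parted from each other. Cd8b1, whose product is the beta chain found with CD8 alpha on conventional cytotoxic T cells, had 112, 55 and 42 raw counts in Twist cKO UUO kidneys, 43, 95 and 42 counts in Snail cKO UUO kidneys and 46, 91 and 22 counts in Myc cKO UUO kidneys. WT UUO kidneys had 53, 82 and 45 counts, against 3, 2 and 8 counts in contralateral kidneys and 3, 12 and 23 counts in healthy kidneys. All 12 obstructed libraries but Myc cKO UUO replicate 3 (0.328 CPM) were above the highest unobstructed one, healthy replicate 3 (0.357 CPM). It rose by 3.27 ± 0.71 over contralateral kidneys (9.68-fold, 95% interval 3.4 to 27.5; adjusted p = 0.00114) and by 1.70 ± 0.63 over healthy kidneys (adjusted p = 0.032). The call against healthy kidneys was lost without healthy replicate 1 or 2 or WT UUO replicate 2 (adjusted p = 0.114, 0.0656 and 0.108) and with Cre presence in the fit (0.0807).

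Cd8a, the alpha chain, which can also pair with itself on other lymphocytes and on a class of dendritic cells, had 331, 172 and 61 raw counts in Twist cKO UUO kidneys, 91, 156 and 82 counts in Snail cKO UUO kidneys and 81, 325 and 58 counts in Myc cKO UUO kidneys. There were 125, 192 and 83 raw counts in WT UUO kidneys, against 104, 99 and 102 counts in contralateral kidneys and 42, 49 and 110 counts in healthy kidneys. The WT UUO range of 1.01 to 2.40 CPM enclosed the contralateral range of 1.67 to 1.84 CPM. Cd8a differed by -0.11 ± 0.59 between WT UUO and contralateral kidneys (95% interval -1.38 to 1.15; adjusted p = 0.888) and by 0.45 ± 0.60 between WT UUO and healthy kidneys (-0.83 to 1.73; adjusted p = 0.551). These intervals leave room for more than a 2-fold change in either direction against contralateral kidneys.

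Because both chains are read in the same library, their ratio does not depend on library scaling. The log2 ratio of Cd8b1 to Cd8a raw counts averaged -1.15 ± 0.40 (SD) over the 12 obstructed libraries and -3.60 ± 1.35 in the 6 unobstructed ones, a difference of 2.45. The unobstructed groups averaged -4.60 ± 0.90 in contralateral and -2.61 ± 0.87 in healthy kidneys (n = 3 each), a difference that was not tested. Their ranges met, at -3.59 in contralateral replicate 3 and -3.60 in healthy replicate 1. The 4 obstructed groups averaged -1.34 to -0.91. Obstructed and unobstructed libraries did not overlap, with -1.83 to -0.53 in obstructed and -5.31 to -1.99 in unobstructed kidneys. An exact permutation test over the 18564 ways to split the libraries gave p = 5.39e-05, the smallest it can give (two-sided; adjusted over the 5 ratios computed, p = 8.98e-05). The ratio of Cd8a to Cd4 moved the other way, at -0.71 ± 0.65 in obstructed and 2.02 ± 0.35 in unobstructed libraries, again without overlap (difference -2.73, exact permutation p = 5.39e-05, adjusted p = 8.98e-05). Summed over each group, there were 0.881 Cd8a counts for each Cd4 count in Twist cKO UUO kidneys, 0.461 in Snail cKO UUO kidneys, 0.693 in Myc cKO UUO kidneys and 0.581 in WT UUO kidneys. The same ratio was 4.62 for contralateral kidneys and 3.19 for healthy kidneys. Cd4 to Cd3e did not pass (difference 0.32, exact permutation p = 0.343). The ratios are of counts not divided by gene length, 0.5 was added to each count, and kidneys of 4 genotypes were pooled as obstructed. They rest on the same counts as the gene tests and are not independent of them. Cd8a, which was not called in WT UUO, is part of both ratios that passed here, beside Cd8b1 or Cd4, which rose. The Cd8b1 counts of 2 to 8 in contralateral kidneys limit the precision of that ratio.

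**Figure D2:**
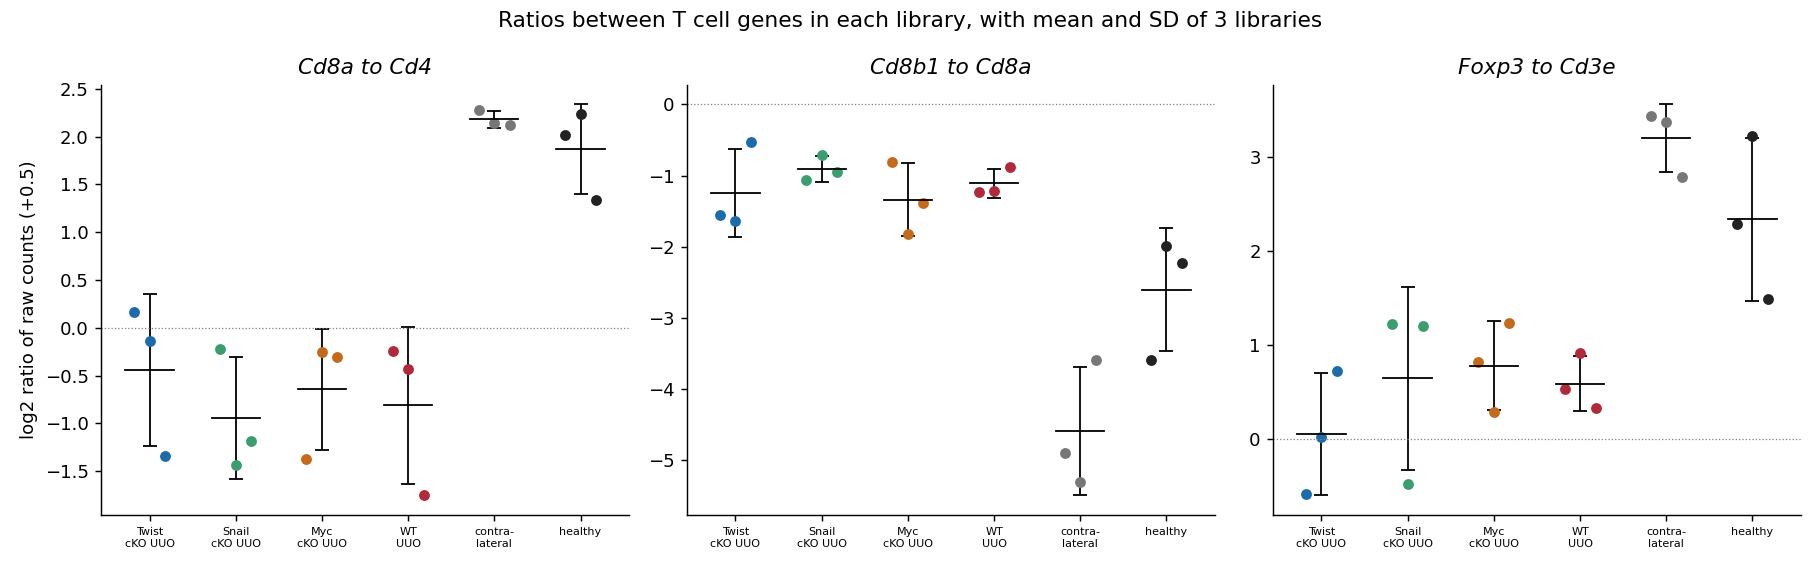
Log2 ratio of raw counts (0.5 added to each) of Cd8a to Cd4, Cd8b1 to Cd8a and Foxp3 to Cd3e in each library (points), with the mean and SD of 3 libraries; the dotted line marks equal counts. In each panel the 12 obstructed libraries on the left lie apart from the 6 unobstructed libraries on the right.

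Cd2, an adhesion receptor of T and NK cells, averaged 1.01 ± 0.32 CPM (SD) in Twist cKO UUO kidneys, 1.01 ± 0.60 CPM in Snail cKO UUO kidneys, 0.876 ± 0.332 CPM in Myc cKO UUO kidneys and 0.974 ± 0.079 CPM in WT UUO kidneys, against 0.201 ± 0.140 CPM in contralateral kidneys and 0.254 ± 0.222 CPM in healthy kidneys. In WT UUO it rose by 2.27 ± 0.66 over contralateral (adjusted p = 0.00911) and by 1.90 ± 0.65 over healthy kidneys (adjusted p = 0.0206); without healthy replicate 1 or 2 the second adjusted p was 0.0743 or 0.0674. Lck, the kinase that first phosphorylates the CD3 chains, had 358, 255 and 148 raw counts in Twist cKO UUO kidneys, 194, 311 and 215 counts in Snail cKO UUO kidneys and 153, 296 and 98 counts in Myc cKO UUO kidneys. WT UUO kidneys had 264, 284 and 235 counts, against 39, 47 and 36 counts in contralateral kidneys and 44, 36 and 89 counts in healthy kidneys, and no obstructed library reached down to an unobstructed level on the CPM scale (lowest 1.46, highest 1.38 CPM). Lck rose by 2.16 ± 0.38 over contralateral (4.48-fold, 95% interval 2.56 to 7.82; adjusted p = 0.00019) and by 1.65 ± 0.37 over healthy kidneys (3.15-fold, 1.83 to 5.43; adjusted p = 0.00133), and both calls held without any 1 library.

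Foxp3 passed the test in neither comparison. It had 106, 105 and 96 raw counts in Twist cKO UUO kidneys, 117, 92 and 129 counts in Snail cKO UUO kidneys and 96, 104 and 125 counts in Myc cKO UUO kidneys. In WT UUO kidneys there were 103, 134 and 111 counts, against 48, 77 and 99 counts in contralateral kidneys and 51, 32 and 91 counts in healthy kidneys. Scaled, WT UUO (1.42 ± 0.23 CPM) and contralateral kidneys (1.29 ± 0.42 CPM) overlapped, and the difference of 0.13 ± 0.29 had a 95% interval of -0.48 to 0.75 (adjusted p = 0.727). Against healthy kidneys (1.03 ± 0.38 CPM) it was 0.45 ± 0.29 (-0.17 to 1.07; adjusted p = 0.206). The log2 ratio of Foxp3 to Cd3e averaged 0.52 ± 0.62 in obstructed and 2.76 ± 0.76 in unobstructed libraries, without overlap (difference -2.24, exact permutation p = 5.39e-05, adjusted p = 8.98e-05). Cd3e counts of 3 to 32 in the unobstructed libraries limit the precision of this ratio. Like the ratios above, it is not independent of the gene tests, in which Cd3e rose and Foxp3 was not called. The Foxp3 counts are uncertain: of its 4577 exon bases on chromosome X (7573644 to 7595245), 1443, or 31.5%, also belong to exons of Ccdc22, Flicr, Gm36995 or Ppp1r3f, and the strand setting of the counting is not given in the sources used here. Ppp1r3f itself had 1.79 to 2.45 CPM on average in the 6 groups and Ccdc22 0 to 4 raw counts in each library, and their part in the Foxp3 value was not tested. Of the other members Cd3e shared 135 exon bases with Gm48719 and Lck 25 with Mir8119.

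Gzmb had the fewest counts of the members in the obstructed groups, with 22, 13 and 5 raw counts in Twist cKO UUO kidneys, 7, 28 and 8 counts in Snail cKO UUO kidneys and 13, 8 and 10 counts in Myc cKO UUO kidneys. WT UUO kidneys had 16, 24 and 12 counts, against 2, 5 and 1 counts in contralateral kidneys and 1, 3 and 27 counts in healthy kidneys, where replicate 3 (0.419 CPM) was the highest of all 18 libraries. The difference of WT UUO from contralateral kidneys was 2.13 ± 0.96 (95% interval 0.09 to 4.18; adjusted p = 0.0728, and 0.0269 in a fit of these 2 groups alone) and that from healthy kidneys 0.29 ± 0.83 (adjusted p = 0.794). Without healthy replicate 3 the difference from healthy kidneys was 2.32 with an adjusted p of 0.0489, and the pooled difference of obstructed from unobstructed kidneys, 0.95 ± 0.58 with all libraries (adjusted p = 0.165), was 1.96 (0.00761). The log2 ratio of Gzmb to Cd3e was -2.58 ± 0.55 in obstructed and -1.27 ± 1.41 in unobstructed libraries, which overlapped (difference -1.31, exact permutation p = 0.00916, adjusted p = 0.0114). In unobstructed libraries this ratio rests on 1 to 27 Gzmb and 3 to 32 Cd3e counts. So few counts limit its precision and let the added 0.5 weigh on it.

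Divided by exon length, Lck had the highest mean level of the 10 genes in each obstructed group, from 0.822 to 1.13 CPM per kilobase, followed by Cd4 at 0.696 to 0.755, and Gzmb the lowest at 0.0993 to 0.147. In contralateral kidneys the order of these length-scaled levels was led by Cd8a (0.485 CPM per kilobase) and Foxp3 (0.282), with Lck at 0.242 and Cd3e at 0.035. In healthy kidneys Lck (0.343), Cd8a (0.327) and Foxp3 (0.226) stood first. Differences between neighbours in these orders were not tested.

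No T cell gene was called between contralateral and healthy kidneys: 0 of 10 passed by edgeR, DESeq2 or limma voom, where edgeR called 2.26% of all genes in either direction, that is 476 genes, or 44 to 977 without 1 library. By edgeR 1 had an unadjusted p under 0.05, Cd8b1 at -1.58 ± 0.73 (adjusted p = 0.281). In 0 of 10 genes did all contralateral libraries lie above all healthy ones, which 12.2% of all genes did. The 10 members' median was -0.53, beside -0.01 for all genes tested. The 95% intervals reached from -1.31 to 0.29 for Lck and from -3.29 to 0.996 for Cd3d.

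The second question was whether deletion of Twist or Snail in endothelial cells, or of Myc in tubular cells, changed T cell RNA in the obstructed kidney. None of the 10 genes was called by edgeR in Twist cKO UUO against WT UUO (5.28% of all genes were called), in Snail cKO UUO against WT UUO (0.299%) or in Myc cKO UUO against WT UUO (12.2%). At an unadjusted p under 0.05 the count was also 0 in each of the 3 comparisons, and DESeq2 and limma voom called 0. The members' median log2 fold changes were 0.11, 0.05 and -0.09 against WT UUO in Twist, Snail and Myc cKO UUO, beside medians of -0.01, 0.00 and 0.00 for all genes. Each member's knockout libraries overlapped the WT UUO libraries, whereas 32.6%, 24.9% and 31.8% of all genes did not overlap in these comparisons. The 3 comparisons share the WT UUO libraries. The Snail and Myc lines also differed in strain from all other groups, and the Myc cKO UUO group in age range. In comparisons of these lines with the other groups, deletion cannot be told apart from these differences. The calls over all genes, 1111 for Twist, 63 for Snail and 2572 for Myc, moved with single libraries: leaving out 1 library gave 13 to 1057, 15 to 141 and 797 to 3025, lowest for Twist and for Myc without WT UUO replicate 1 and for Snail without Snail cKO UUO replicate 3. The T cell count was 0 in each of these fits. The adipocyte sum was 0.0652 to 0.803 CPM in Twist cKO UUO kidneys, with Lep at 0 in each, against 0.244 to 76.3 CPM in WT UUO kidneys. It was 0.161 to 73.6 CPM in Snail and 0.0982 to 96.4 CPM in Myc cKO UUO kidneys. The part of this sum in the values of these comparisons was not tested.

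The intervals show how large a difference these libraries could have missed. For Cd3e the difference was 0.57 (95% interval -0.60 to 1.74) in Twist cKO UUO, 0.09 (-1.09 to 1.26) in Snail cKO UUO kidneys and -0.12 (-1.29 to 1.06) in Myc cKO UUO kidneys, each against WT UUO. Lck, with the narrowest interval after Foxp3, differed by 0.06 (-0.69 to 0.81), -0.08 (-0.83 to 0.68) and -0.40 (-1.15 to 0.36) in Twist, Snail and Myc cKO UUO. Cd4 differed by 0.00 (-1.22 to 1.22), 0.12 (-1.10 to 1.34) and 0.06 (-1.16 to 1.28). Cd8a differed by 0.58 (-0.68 to 1.84), -0.24 (-1.50 to 1.03) and 0.29 (-0.97 to 1.56), and Foxp3 by -0.06 (-0.68 to 0.55), -0.03 (-0.64 to 0.59) and 0.07 (-0.54 to 0.69). The intervals of Cd3e, Cd4 and Cd8a all reach beyond 1 on the log2 scale in at least 1 direction, so a p above the threshold does not show that the groups were alike.

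**Figure D3:**
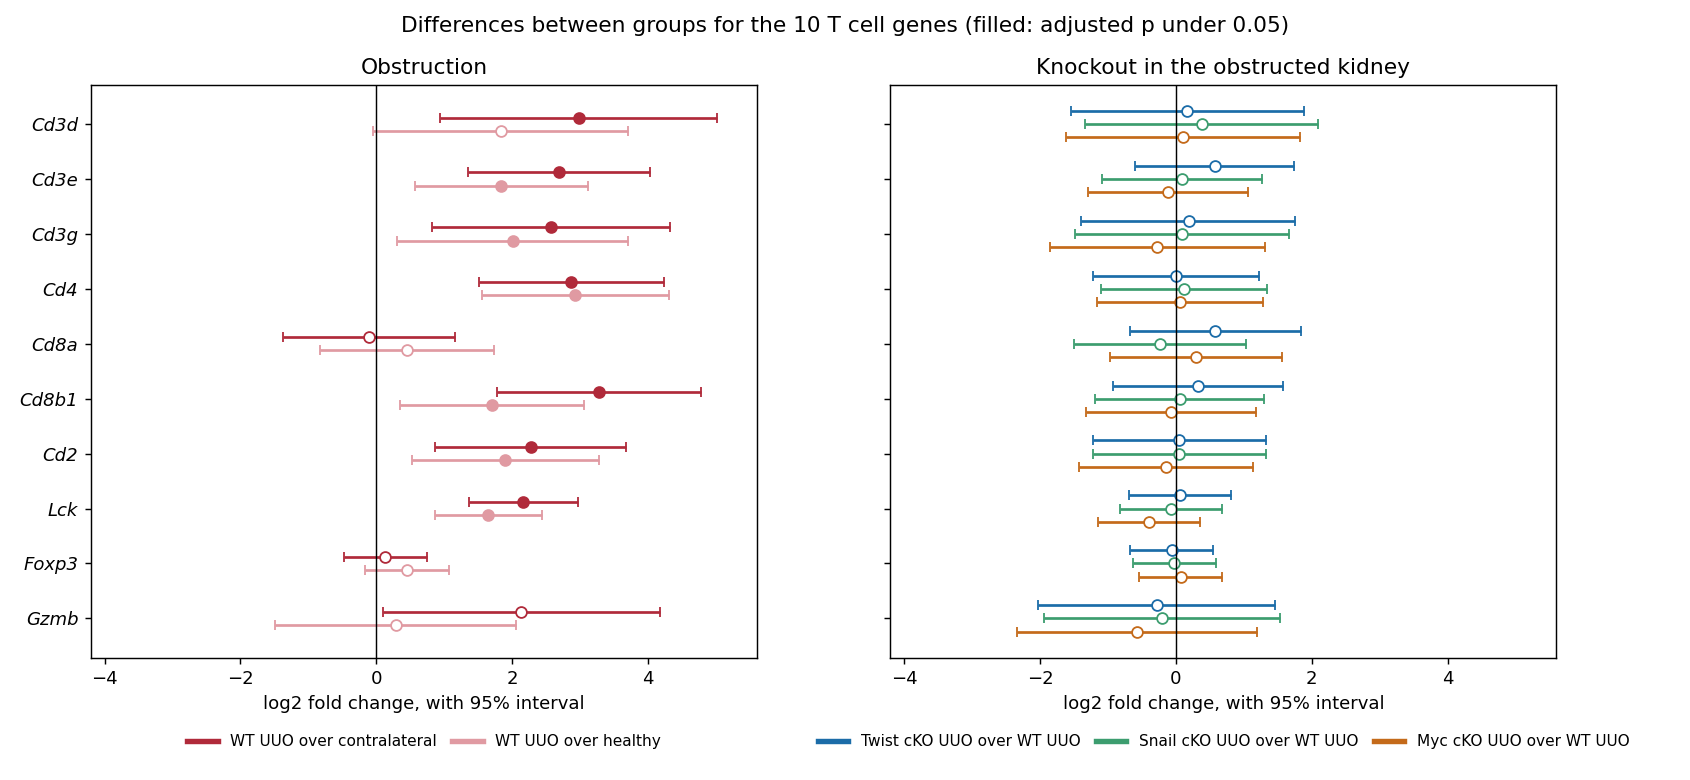
Log2 fold change of each T cell gene with its 95% interval (horizontal axes), for WT UUO over contralateral and over healthy kidneys on the left and for each knockout over WT UUO on the right; filled points have an edgeR adjusted p under 0.05. On the left 7 and 6 genes are filled, the intervals of Cd8a and Foxp3 span 0 in both comparisons, and on the right every interval spans 0.

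Neither was a T cell gene called between knockouts. Of the 10 genes, 0 were called in Snail against Twist cKO UUO (0.171% of all genes), 0 in Myc against Twist cKO UUO (2.99%) and 0 in Myc against Snail cKO UUO (2.45%), with 0 at an unadjusted p under 0.05 and 0 by DESeq2 and by limma voom. A test of any difference among the 4 obstructed groups called 0 members and 9.25% of all genes, and its lowest adjusted p among members was 0.72 (edgeR), for Cd8a. Set against contralateral kidneys, 7 of 10 genes rose in Twist cKO UUO (21.5% of all genes rose), 7 in Snail cKO UUO kidneys (23.7%) and 7 in Myc cKO UUO kidneys (22.0%), with medians of 2.54, 2.49 and 2.21. These were the genes that rose in WT UUO, and all 4 comparisons share the contralateral libraries. The count was 4 without Snail cKO UUO replicate 2, and 4 in Myc cKO UUO without its replicate 2 or without contralateral replicate 1. Pooled over genotype, 7 of 10 rose in the 12 obstructed against the 6 unobstructed libraries, where 33.4% of all genes rose. The pooled rise was 2.95 ± 0.43 for Cd4, 2.40 ± 0.40 for Cd3e and 1.8 ± 0.24 for Lck (adjusted p = 2.08e-05, 8.27e-05 and 8.81e-06).

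Other genes of the T cell pathway were counted in lists, in WT UUO against contralateral kidneys, where 27.5% of all genes rose and 26.0% fell. Of 20 genes of T cell receptor signalling 18 rose and 0 fell, with a median of 2.48. Among them were Cd247 (2.04 ± 0.31, adjusted p = 5.88e-05), which encodes the CD3 zeta chain, the adaptor gene Lcp2 (2.32 ± 0.26, 3.33e-06), the inhibitory receptor gene Cd5 (3.52 ± 0.61, 0.000175) and Ptprc (2.47 ± 0.38, 7.43e-05), the CD45 phosphatase of all leukocytes. Of 13 chemokine and receptor genes 10 rose and 0 fell (median 2.59), among them Cxcl16 (1.74 ± 0.14, adjusted p = 2.83e-07), the ligand of CXCR6. Ccl5, a chemokine that attracts T cells, averaged 2.08 ± 0.76 CPM in WT UUO and 0.218 ± 0.118 CPM in contralateral kidneys (3.26 ± 0.46, adjusted p = 2.81e-05). Of 10 cytotoxic and NK cell genes 9 rose and 0 fell (median 2.99), among them Klrb1c, the NK1.1 receptor (3.27 ± 0.81, adjusted p = 0.00303).

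The list of T cell regulators and cytokines was mixed, with 8 higher and 2 lower of 16 tested. Tcf7, a transcription factor of naive and memory T cells, rose by 2.01 ± 0.27 (adjusted p = 1.45e-05) and Il7r, the receptor of a T cell survival cytokine, by 2.99 ± 0.69 (0.00186). Bcl11b, a T cell lineage factor, fell by 1.32 ± 0.17 (adjusted p = 1.16e-05). Bcl11b averaged 3.41 ± 0.41 CPM in WT UUO and 8.53 ± 0.71 CPM in contralateral kidneys, so it was higher in the contralateral kidneys, where Cd3e averaged 0.143 CPM. In Twist cKO UUO against WT UUO Bcl11b rose by 0.66 ± 0.17 (adjusted p = 0.0387), a call lost without any 1 of the 6 libraries (adjusted p = 0.0625 to 0.147). In the same comparison 0 of 20 receptor signalling genes, 0 of 13 chemokine and receptor genes and 0 of 10 cytotoxic genes were called. Both other knockouts had 0 called in each of these 4 lists. The 4 cytokine genes of the list did not pass the filter on low counts: Ifng had 10 raw counts in all in WT UUO and 7 in contralateral kidneys, Il2 6 and 0, Il10 11 and 4, and Il17a 2 and 0.

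The gamma delta T cell list was mixed, with 2 higher and 1 lower of 6 tested, beside 27.5% and 26.0% of all genes. Tcrg-C1, a constant gene of the gamma chain, averaged 0.198 ± 0.216 CPM in WT UUO and 0.00619 ± 0.0107 CPM in contralateral kidneys (adjusted p = 0.0235), and Cd163l1 averaged 0.310 ± 0.264 and 0.0345 ± 0.0162 CPM (0.0412); these contralateral levels are below that of 3 counts. Sox13, a transcription factor found in gamma delta T cells and in other tissues, fell by 0.68 ± 0.08 (adjusted p = 3.2e-06), at 18.5 ± 0.5 CPM in WT UUO and 29.7 ± 0.9 CPM in contralateral kidneys. The summed level of the list was 18.5 to 20.6 CPM in WT UUO and 28.8 to 30.5 CPM in contralateral kidneys, and most of it was Sox13. The other tested genes of the list all had higher means in WT UUO than in contralateral kidneys, and of these Tcrg-C1 and Cd163l1 were called. Of 5 genes of lymph node stroma and lymphoid tissue 2 rose, Madcam1 (0.415 ± 0.095 CPM in WT UUO and 0.0171 ± 0.0296 CPM in contralateral kidneys, adjusted p = 0.000208) and the cytokine gene Ltb (3.14 ± 0.51, 9.25e-05), and Glycam1 fell by 3.77 ± 0.54 (2.9e-05), at 0.0487 ± 0.0324 CPM in WT UUO and 0.685 ± 0.146 CPM in contralateral kidneys.

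Markers of other leukocytes moved with the T cell genes under obstruction. In WT UUO against contralateral kidneys 8 of 8 macrophage genes rose (median 3.37), as did 5 of 8 B cell genes (median 2.33) and 5 of 7 dendritic cell genes (median 1.90). In that comparison 27.5% of all genes rose and 26.0% fell. The summed macrophage level was 489 to 738 CPM in WT UUO and 88.1 to 107 CPM in contralateral kidneys, and the summed T cell level 11.5 to 17 CPM and 3.98 to 5.41 CPM. Of 9 tubule and podocyte genes 9 fell (median -2.73). The part of these in the T cell results was not tested. Against WT UUO kidneys 4 of 8 macrophage genes passed the test as lower with Twist deletion (C1qa at -0.84 ± 0.21, adjusted p = 0.0368; C1qb, C1qc and Mrc1 with adjusted p of 0.0422, 0.0314 and 0.0444), 0 of 8 with Snail deletion and 4 of 8 with Myc deletion (C1qa and C1qc among them), beside 0 of 10 T cell genes in each. Of all genes 2.31%, 0.138% and 6.91% were lower in these comparisons. Deletion and strain cannot be told apart in the Snail and Myc comparisons. The Twist count was 0 without any 1 of the 3 Twist cKO UUO libraries or without WT UUO replicate 1 or 2. The Myc count was 1 without Myc cKO UUO replicate 2 or 3 or WT UUO replicate 1 or 2. The summed macrophage level was 350 to 409 CPM in Twist cKO UUO kidneys, 368 to 504 CPM in Snail cKO UUO kidneys and 391 to 485 CPM in Myc cKO UUO kidneys. Whether the 2 lists differ in their response was not tested.

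**Figure D4:**
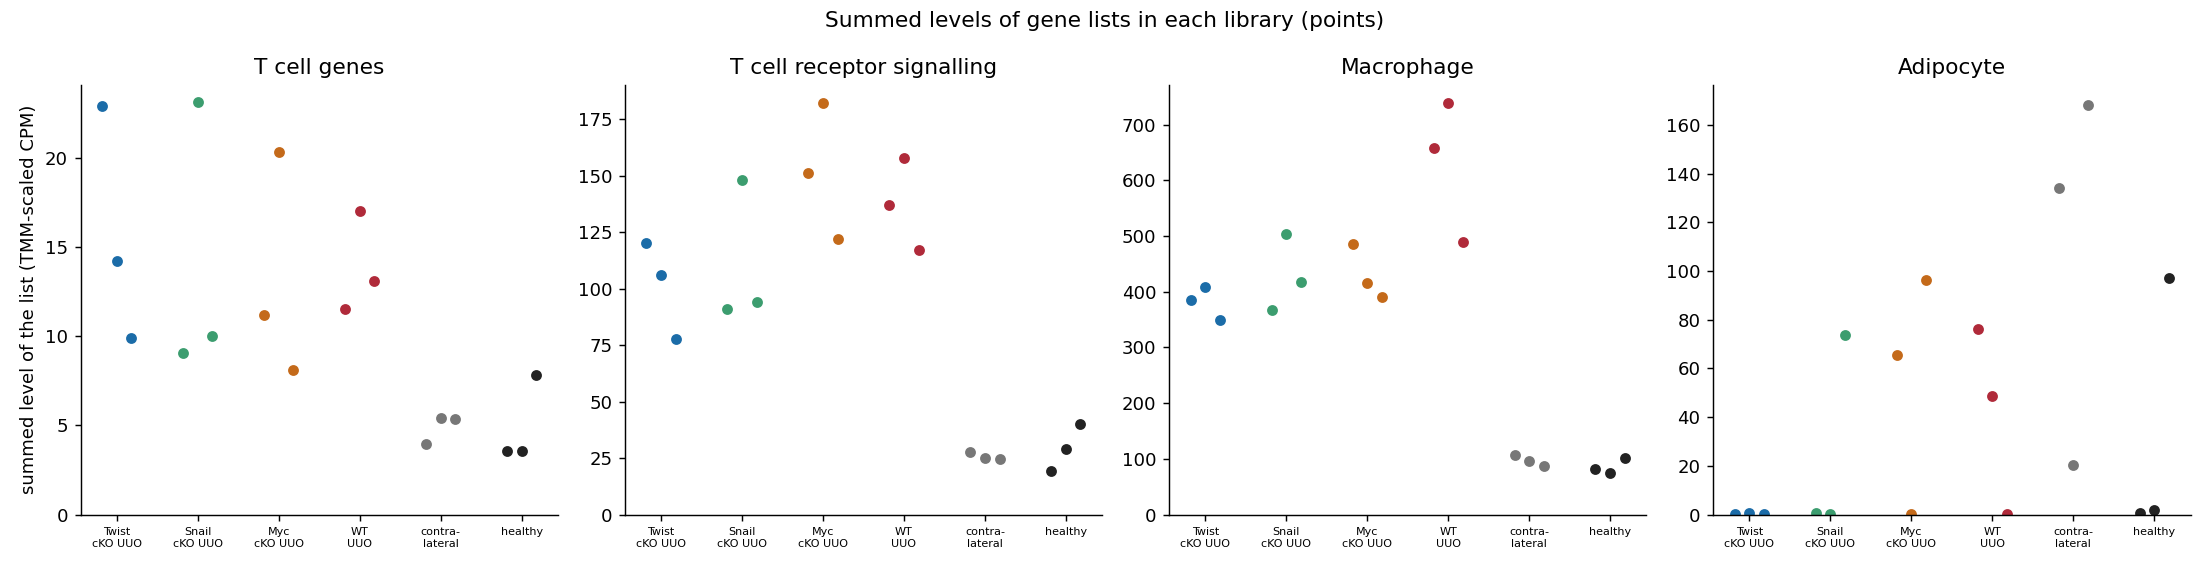
Summed level in CPM (vertical axes from 0) of the 10 T cell genes, 20 T cell receptor signalling genes, 8 macrophage genes and 6 adipocyte genes in each library (points) of the 6 groups. The first 3 sums are higher in every obstructed than in every unobstructed library, and the adipocyte sum is at most 0.803 CPM in Twist cKO UUO kidneys and reaches 168 CPM in a contralateral one. Most of the receptor signalling sum is Ptprc, a gene of all leukocytes. Ptprc averaged 88.8 CPM in WT UUO and 16.0 CPM in contralateral kidneys, where the sums averaged 137 and 25.8 CPM.

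Across the 18 libraries the genes whose log2 level was most like that of Cd3e, leaving out members, were Skap1 (Pearson r = 0.95), Sept1 (0.95) and Cxcr3 (0.946), followed by Gm13710, Kcna3, Abca9, Btla and Art4. These libraries share the contrast of obstructed and unobstructed kidneys, so the values describe that contrast as much as any other variation. Within the 12 obstructed libraries the list was Baiap3 (0.90), Ccr4 (0.879), Cxcr3 (0.847), Gm23751, Gm15622, Cd5 (0.825), Triqk and Tmem163. Cxcr3, a chemokine receptor of activated T cells, was in both lists. Among the members, r with Cd3e within the obstructed libraries ran from 0.657 for Gzmb to 0.827 for Cd3g, apart from Foxp3 at -0.371; over all 18 libraries it was 0.324 for Cd8a and 0.583 for Foxp3, and 0.682 to 0.923 for the others.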

How the data were processed

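Total RNA of whole kidney was measured in 18 libraries. HTSeq, DESeq2, bcl2fastq 1.8.4 and the mm10 build are named, with no role or order, per the submitters' processing notes. Which aligner, annotation and strand setting they used is not given in the sources used here. Per the labels, the library kit was stranded. The authors deposited raw counts per gene symbol, and a normalized signal that was the raw count divided by 1 factor per library (largest relative deviation 5.13e-15) and was used for this check alone. Of 24 columns, 6 matched no sample and entered no step. Groups came from the labels.

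Counts were fitted in R 4.3.3 with edgeR 4.0.16: filterByExpr (minimum count 10), TMM scaling, and a robust quasi-likelihood fit with 1 mean for each of 6 groups and 12 residual degrees of freedom, two-sided, with Benjamini-Hochberg adjustment over 21050 genes and a threshold of 0.05. Ratios of raw counts plus 0.5 were compared by exact permutation. Likeness used log2 CPM with a prior count of 2. Positions and exons came from GENCODE M21 (GRCm38, the build mm10) and promoters from RefSeq; 7 of the 10 genes had a promoter there. The alternatives were another scaling (size factors, or no mitochondrially encoded genes), no or a stricter filter, DESeq2 1.42.0, limma 3.58.1 voom, Cre presence as a covariate, the 2 groups alone, a pseudocount of 2, and leaving out libraries. Of these steps only the edgeR fit was run on simulated counts with known fold changes, for Twist cKO UUO against WT UUO. The ratios and the likeness were not simulated.

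The members and lists were chosen with earlier results of these data known. The genes named are the members, up to 4 of each list with the smallest p in a comparison, and the 8 most like Cd3e; the cytokines that did not pass the filter were named after their values were seen. Some genes of the lists are counted but not reported here by name. Of the lists, Ccl19, Trdc and Adgre1 were not analysed here.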

Additional observations from a re-analysis of the deposited data

How the results depend on the processing

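No paired analysis was possible because the labels neither number the replicates nor mark kidneys of 1 animal. WT UUO and contralateral kidneys could be matched by genotype alone: within groups Cre presence varied only there, and with it in the fit 7 T cell genes were called between them, as without it. Of 2207 member values under the alternatives 2161 kept their side of the threshold, 42 lost the threshold and 4 gained it. None changed direction while past the threshold in either fit. Among the 2161, 144 changed sign while past the threshold in neither fit. Size factors, scaling without mitochondrially encoded genes and the stricter filter changed no member's call. A scaling to total counts alone was not among the alternatives. TMM factors were 1.35 to 1.37 in WT UUO and 0.621 to 0.680 in contralateral kidneys. Their part in the values of Cd8a and Foxp3, which were not called, was not tested. Leaving out 1 library, the number of T cell genes called was 2 to 7 in WT UUO against healthy (2 without healthy replicate 1 or 2), 5 to 7 in WT UUO and in Twist cKO UUO against contralateral, 4 to 7 in Snail and in Myc cKO UUO against contralateral, 7 to 8 in the pooled comparison, and 0 in contralateral against healthy and in each comparison of a knockout with WT UUO or with another knockout. No ratio changed its call. The limits are few counts (Gzmb, and Cd3d, Cd3e, Cd3g, Cd8b1 and Cd2 in unobstructed kidneys), 3 libraries a group, and 1 library deciding calls. With Cre presence in the fit, 4 genes were called in WT UUO against healthy kidneys, where all healthy mice were Cre-negative; limma voom called 5 in Snail and in Myc cKO UUO against contralateral. Leaving out 1 library was added for the macrophage genes and Bcl11b after the data were seen; the macrophage count was 0 to 4 in Twist, 0 in Snail and 1 to 4 in Myc cKO UUO against WT UUO.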
